A study of Mus musculus with 3 samples.

Results

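Lin28a and Prtg were 2 of the 296 genes counted by MERFISH, which reads single RNA molecules in place from barcodes imaged over rounds of hybridisation, in sagittal sections of wild-type mouse embryos. One section came from 1 embryo of the stage E15.5 (days of embryonic development), and 2 sections came from 2 different embryos at E9.5. Both genes were picked for their large difference between these stages, so their levels by stage are given as a description with no test. Their columns were read in every segmented cell with at least 10 counts of panel genes: 195915 of 219525 cells at E15.5, 830 of 1077 cells in E9.5 section 1 and 6334 of 6835 cells in E9.5 section 2. At least 1 count of either gene was present in 16650 kept cells at E15.5, in 671 kept cells of E9.5 section 1 and in 5510 kept cells of E9.5 section 2. With 1 embryo at E15.5, stage, embryo and imaging run cannot be told apart.

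Lin28a encodes an RNA-binding protein that blocks the maturation of let-7 microRNAs, which would otherwise repress genes of growth and the cell cycle. In the mouse it is known from the early embryo, where it is lost as tissues differentiate, and from primordial germ cells. Prtg encodes protogenin, a membrane protein of the immunoglobulin superfamily related to the netrin receptor DCC and to neogenin, known in the mouse from the early neural tube and mesoderm. The files also hold 19 blank codes, barcodes that were given to no gene, and their counts show how often a code is read without a target.

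Depth differed between the sections. Kept cells held a median of 84 gene counts at E15.5, against 61 in E9.5 section 1 and 128 in E9.5 section 2. The totals were 21227345 gene counts at E15.5, 68572 in E9.5 section 1 and 1034730 in E9.5 section 2. The mean blank code stood at 159.5 CPM at E15.5 (the count of a code or gene per 1000000 gene counts), and at 239.5 and 149 CPM in E9.5 sections 1 and 2. No cell identifier was shared between sections. All intervals below are 95% intervals (Poisson for counts, Clopper-Pearson for shares of cells) and cover counting error only.

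The sequences before the annotated starts of both genes are shown because these 2 genes had the largest falls of the panel, as given below. Each is the 250 bases upstream of the start in RefSeq's GRCm38.p6 annotation, 5′ to 3′ on the gene's own strand. Lin28a (gene ID 83557) lies on chromosome 4, and the window is chr4:134018817-134019066 on the minus strand. It falls within the annotated span of the gene (134003330 to 134019196), since other transcript models start further upstream. Prtg (gene ID 235472) lies on chromosome 9 from 72807274 to 72917307, and the window is chr9:72807024-72807273 on the plus strand. Capitals mark matches on either strand to the motifs searched: the SOX-type core CATTGT, the CCAAT box, the GC box GGGCGG, the TATA box TATAAA and the octamer ATGCAAAT.
Lin28a: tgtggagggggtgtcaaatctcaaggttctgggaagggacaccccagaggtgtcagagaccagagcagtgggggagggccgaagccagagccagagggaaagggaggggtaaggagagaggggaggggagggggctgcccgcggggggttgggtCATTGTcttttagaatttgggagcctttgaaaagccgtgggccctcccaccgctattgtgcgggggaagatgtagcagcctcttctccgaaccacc
Prtg: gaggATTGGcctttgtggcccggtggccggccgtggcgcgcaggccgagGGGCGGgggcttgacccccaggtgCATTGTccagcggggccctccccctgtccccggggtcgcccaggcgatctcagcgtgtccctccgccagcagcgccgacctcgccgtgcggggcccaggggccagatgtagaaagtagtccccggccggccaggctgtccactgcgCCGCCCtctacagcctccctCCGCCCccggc

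Each window held 1 copy of CATTGT, a sequence held by 10.7% of the 32851 promoter windows in the table. The Prtg window also held 1 CCAAT box and 3 GC boxes, where 33.8% of windows held at least 1 CCAAT box and 32.7% at least 1 GC box, and no match overlapped another. Neither window held TATAAA (12.4% of windows) or ATGCAAAT (1.6% of windows). The Prtg window was 75.2% G and C and the Lin28a window 61.2%, against a median of 52.4% over all windows. A match is a match of letters, and nothing in these data measures binding there.

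Lin28a was near the level of the blank codes over the whole E15.5 section and among the abundant genes at E9.5. It had 4779 counts at E15.5, which is 225 CPM (interval 219 to 232), against 753 counts or 10981 CPM in E9.5 section 1 and 19673 counts or 19013 CPM in E9.5 section 2. It ranked 258 of 296 genes at E15.5, against 20 and 12 in E9.5 sections 1 and 2. The E15.5 level was 1.41 times the mean blank code and 0.501 times the highest, and 3 of the 19 blank codes had more counts than Lin28a. At E9.5, by contrast, Lin28a was 16.02 times the highest blank code in section 1 and 50.1 times in section 2.

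Prtg stayed above every blank code at E15.5. It had 14636 counts at E15.5, which is 689.5 CPM (interval 678 to 701), against 3309 counts or 48256 CPM in E9.5 section 1 and 32190 counts or 31110 CPM in E9.5 section 2. It ranked 182 at E15.5, against 2 and 6 in E9.5 sections 1 and 2. The E15.5 level was 4.32 times the mean blank code and 1.54 times the highest.

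Ranked by the smaller of the falls against the E9.5 sections, Lin28a was first and Prtg second of 296 genes. Lin28a was 48.8 and 84.5 times lower at E15.5 than in E9.5 sections 1 and 2, and Prtg was 70.0 and 45.1 times lower. The third gene, Car14 (carbonic anhydrase 14), was 22.8 and 10.5 times lower. Of all genes, 12 (4.05%) were at least 4-fold lower at E15.5 than in each E9.5 section, Lin28a and Prtg among them by choice. With the mean blank code subtracted, the level of Lin28a at E15.5 was 65.7 CPM and that of Prtg 530.0 CPM, so what remains of Lin28a rests largely on the blank level assumed. In sums over a section, fewer cells of a type and less RNA per cell cannot be told apart.

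The share of cells with a count was also lower at E15.5 than in either E9.5 section. At E15.5, 2.24% of kept cells had a Lin28a count (2.18 to 2.31) and 6.47% a Prtg count (6.36 to 6.58). In E9.5 section 1 the shares were 32.6% for Lin28a and 75.3% for Prtg, and in E9.5 section 2 they were 61.4% and 80.5%. The most Lin28a counts in 1 cell were 14 at E15.5, 16 in E9.5 section 1 and 78 in E9.5 section 2. For Prtg they were 7 at E15.5, 29 in E9.5 section 1 and 94 in E9.5 section 2.

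The filter on cells left out few counts of either gene. Cells under 10 gene counts held 57 Lin28a and 67 Prtg counts at E15.5, 7 and 20 in E9.5 section 1, and 10 and 23 in E9.5 section 2. Just above the filter, cells of 10 to 19 gene counts had Lin28a at 535 CPM at E15.5, against 4057 and 7696 CPM in E9.5 sections 1 and 2. Prtg in those cells was at 813.5 CPM at E15.5, against 40568 and 18190 CPM in the E9.5 sections.

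Within the E9.5 sections the 2 genes were highest in different places, while many cells held both, as given below. In the maps of both sections, Lin28a was high in thin layers along edges and high in a broad band of the lower part of section 2, and Prtg was high in blocks of which several had little Lin28a.

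**Figure D1:**
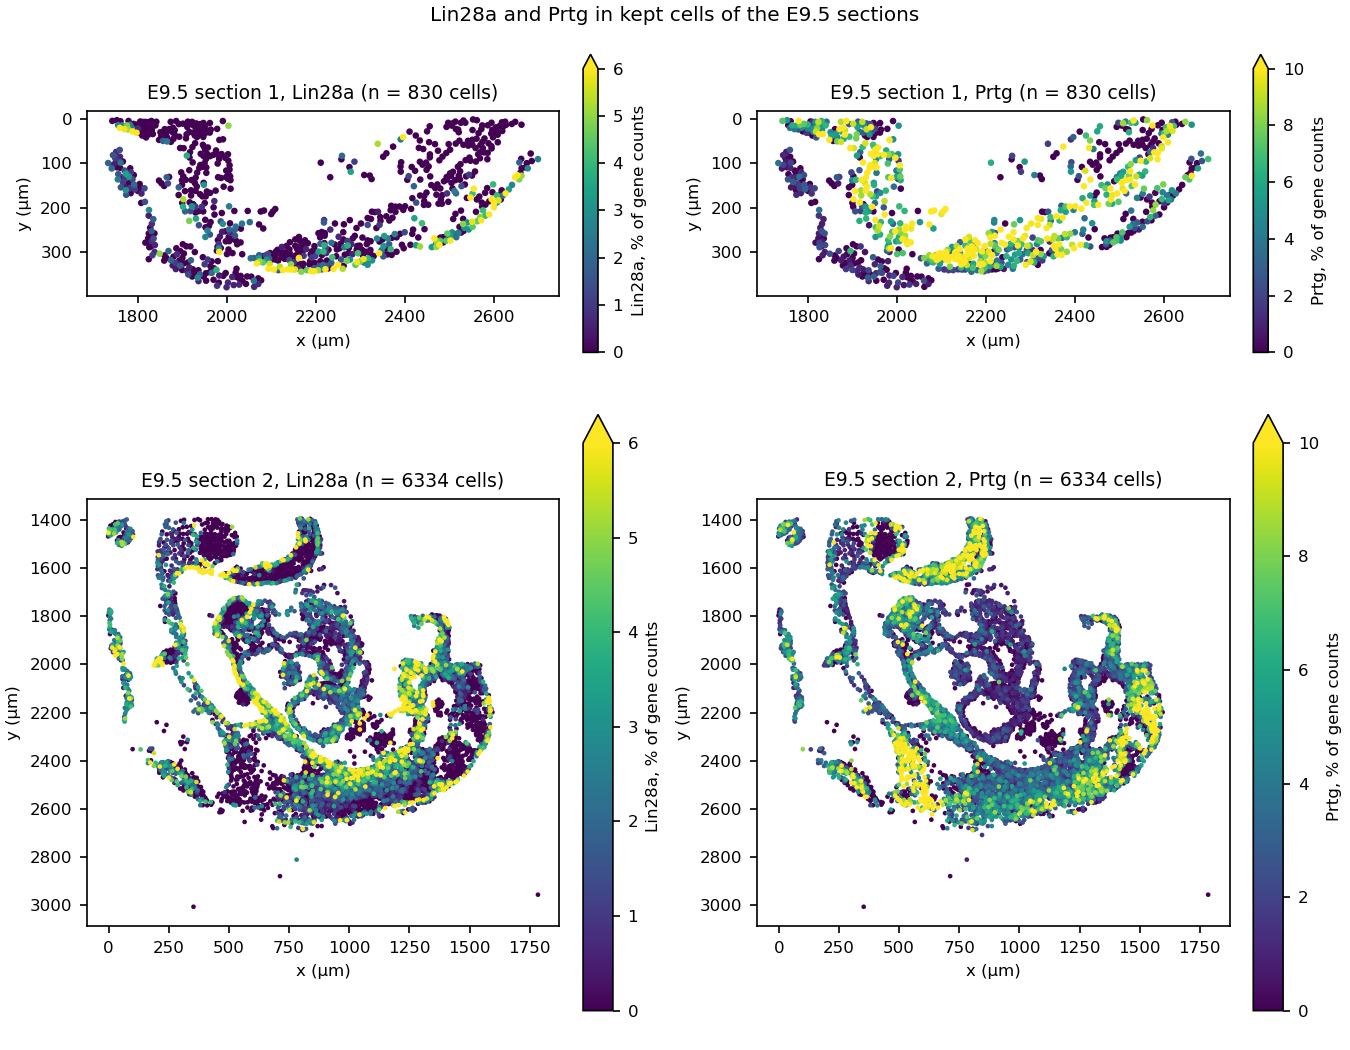
Positions of kept cells (x and y in µm, each point 1 cell) in E9.5 section 1 (830 cells, top) and section 2 (6334 cells, bottom), coloured by the share of a cell's gene counts that Lin28a (left) or Prtg (right) made up. Lin28a is high in layers along edges, and Prtg is high in blocks that include areas with little Lin28a.

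Part of this pattern lay in areas where Gnas, a widely expressed gene for a G protein subunit, made up under 1% of the gene counts of the 30 nearest kept cells. That limit was set after the values were seen. Such areas held 416 cells (50.1%) in section 1 and 2830 cells (44.7%) in section 2. Lin28a there was at 4132 CPM in section 1 and 16303 CPM in section 2, against 15392 and 20591 CPM in the other areas. Prtg went the other way, at 71958 and 45312 CPM in the low-Gnas areas of sections 1 and 2, against 32990 and 22837 CPM in the other areas. The areas differed in more than Gnas: 24 of the 296 genes were at least 4-fold lower there in both sections and 3 were at least 4-fold higher. The mean blank code was at 298 and 190.3 CPM in the low-Gnas areas of sections 1 and 2, against 202 and 125 CPM in the other areas. Whether tissue or imaging sets these areas apart was not tested, so levels within them carry that limit. Results below are also given without them where that changes a call.

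To see which E9.5 cells held the genes, cells of both sections were clustered on the other 294 genes. This gave 26 clusters, and the 10 clusters with at least 20 cells in each section were compared. Each was set against the mean of the other tested clusters with edgeR's quasi-likelihood test, the section as a block, and Benjamini-Hochberg adjustment over all genes and clusters. Lin28a was higher in 5 clusters and lower in 2, and Prtg was higher in 2 and lower in 2. Over all genes and clusters, 25.7% of contrasts were called higher and 8.01% lower, and the genes behind those shares, unlike Lin28a and Prtg, had been used to form the clusters.

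Lin28a was highest in cluster 10, led by Nkx2-3 (a homeobox factor), Spint2 (a serine protease inhibitor of epithelia) and Edn1 (endothelin 1). It stood there at 52274 CPM in section 1 (34 cells) and 47243 CPM in section 2 (252 cells), and 97.1% and 96.0% of these cells had a count. The level was above that of every other tested cluster in both sections. The log2 difference from the mean of the others was 2.96 ± 0.34 (SE, edgeR, adjusted p = 6.41e-14), where 25.1% of genes were higher in this cluster. The call held in each other setting in which this cluster was tested, with the smallest difference, 1.83 (edgeR, adjusted p = 1.15e-05) without the low-Gnas areas.

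Clusters 15 and 8 came next. Cluster 15, led by Crabp1, which binds retinoic acid in the cell, had Lin28a at 31529 CPM in section 1 (21 cells) and 36831 CPM in section 2 (217 cells). Its log2 difference was 2.26 ± 0.36 (SE, edgeR, adjusted p = 3.99e-08), with 22.3% of genes higher. The neural tube-like cluster 8, with Fabp7 and Crabp1 among its leading genes, had 22698 CPM in section 1 (50 cells) and 27353 CPM in section 2 (284 cells). Its difference was 2.07 ± 0.36 (SE, edgeR, adjusted p = 4.54e-07), with 35.7% of genes higher. Without the low-Gnas areas the difference in cluster 8 was 0.68 (edgeR, adjusted p = 0.209), and cluster 15 had too few cells in section 1 to be tested.

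The calls for clusters 5 and 6 depended on the settings. Cluster 5, whose cells had a median of 27 gene counts, had Lin28a at 21198 and 17428 CPM in sections 1 and 2 and a difference of 1.20 (edgeR, adjusted p = 0.0102). Cluster 6, led by Dkk2 (a Wnt antagonist family member) and Epas1 (a hypoxia-inducible factor), had 8136 and 11820 CPM and a difference of 1.25 (edgeR, adjusted p = 0.00485). Both levels of cluster 6 lay below those of all kept cells, 10981 CPM in section 1 and 19013 CPM in section 2. The level of cluster 5 lay below that of all kept cells in section 2 only. Higher here means higher than the mean of the other tested clusters, several of which were low in Lin28a. Of all genes, 32.6% were higher in cluster 5 and 38.1% in cluster 6. When cluster 11 was left out of the comparison, the differences were 0.12 for cluster 5 (edgeR, adjusted p = 0.866) and 0.65 for cluster 6 (edgeR, adjusted p = 0.115), and clusters 1 (-1.27, adjusted p = 0.00833) and 13 (-1.49, adjusted p = 0.00313) were called lower. Both calls were also lost without the low-Gnas areas, where the differences were 0.08 for cluster 5 (edgeR, adjusted p = 0.933) and 0.06 for cluster 6 (edgeR, adjusted p = 0.947). In that fit clusters 1 (-1.26, edgeR, adjusted p = 0.0349) and 7 (-1.39, edgeR, adjusted p = 0.0284) were called lower. Cluster 6 was lost without TMM factors as well, where its difference was 0.39, and cluster 5 without a gene filter (edgeR, adjusted p = 0.108) and at both other Leiden resolutions.

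Cluster 11 was the low extreme of Lin28a, with 0 counts in 63 cells of section 1, for which a floor of 3 counts is 952 CPM, and 2 counts or 204 CPM in 213 cells of section 2. The log2 difference fitted by edgeR was -6.77 (adjusted p = 9.78e-13). Prtg was present in the same cells at 38083 and 21639 CPM. The cluster was low in many genes at once: 114 and 141 of the 296 genes had any count in sections 1 and 2, Actg1 (cytoplasmic actin) was at 0 and 102 CPM, Gnas was at 0 in both, and 44.7% of genes were called lower. Of its cells, 100% and 99.1% lay in low-Gnas areas. Cluster 14, led by Heyl and Tcf15 (a factor of the somites), was also lower in Lin28a, at 3728 and 2546 CPM, with a difference of -1.92 ± 0.53 (SE, edgeR, adjusted p = 0.00212) and 2.06% of genes lower. Of its cells, 76.1% and 91.7% lay in low-Gnas areas.

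Prtg was highest in cluster 1, led by Sfrp2, a secreted modulator of Wnt signals. It stood there at 89355 CPM in section 1 (178 cells) and 78996 CPM in section 2 (536 cells), while Lin28a was at 3133 and 6308 CPM. The log2 difference of Prtg was 1.77 ± 0.33 (SE, edgeR, adjusted p = 2.12e-06), with 29.6% of genes higher. Low-Gnas areas held 76.4% and 91.2% of these cells, and with them left out the difference was 1.27 (edgeR, adjusted p = 0.00279). The size depended on the tool and the filter, at 0.52 with DESeq2 (adjusted p = 0.00265) and 1.08 at 20 gene counts per cell (edgeR, adjusted p = 0.00815). In the neural tube-like cluster 8 Prtg was at 70093 and 42823 CPM, with a difference of 0.90 (edgeR, adjusted p = 0.0384) and 35.7% of genes higher. That call was lost at a filter of 20 gene counts per cell (edgeR, adjusted p = 0.0801), without TMM factors (edgeR, adjusted p = 0.0920) and at a Leiden resolution of 0.5 (edgeR, adjusted p = 0.0635). Clusters 14 and 13 had more Prtg than cluster 8 in both sections, at 78596 and 66927 CPM and at 72421 and 52474 CPM. Neither was called (0.73 each, edgeR, adjusted p = 0.106). Without TMM factors both were called higher (1.08 and 0.82, edgeR, adjusted p = 0.00192 and 0.0239). Without cluster 11, cluster 14 was called (1.10, edgeR, adjusted p = 0.00229) and cluster 13 was not. DESeq2 called neither (adjusted p = 0.941 and 0.983).

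Prtg was lowest by the mean of both sections in cluster 7, led by Car2 (carbonic anhydrase 2, abundant in red blood cells) and Slc38a5. Its cells had a median of 21 gene counts. Prtg was at 13997 CPM in section 1 (23 cells, 9 counts) and 9793 CPM in section 2 (332 cells, 86 counts), a difference of -1.95 ± 0.49 (SE, edgeR, adjusted p = 5.96e-04), with 5.50% of genes lower. In section 1 cluster 6 was lower still, at 11032 CPM, and it was not called (-0.77, edgeR, adjusted p = 0.145). Cluster 11 was called lower as well (-1.09, edgeR, adjusted p = 0.0353). That call was lost with DESeq2 (-0.12, adjusted p = 0.655), without TMM factors (edgeR, adjusted p = 0.436) and in 3 further settings.

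**Figure D2:**
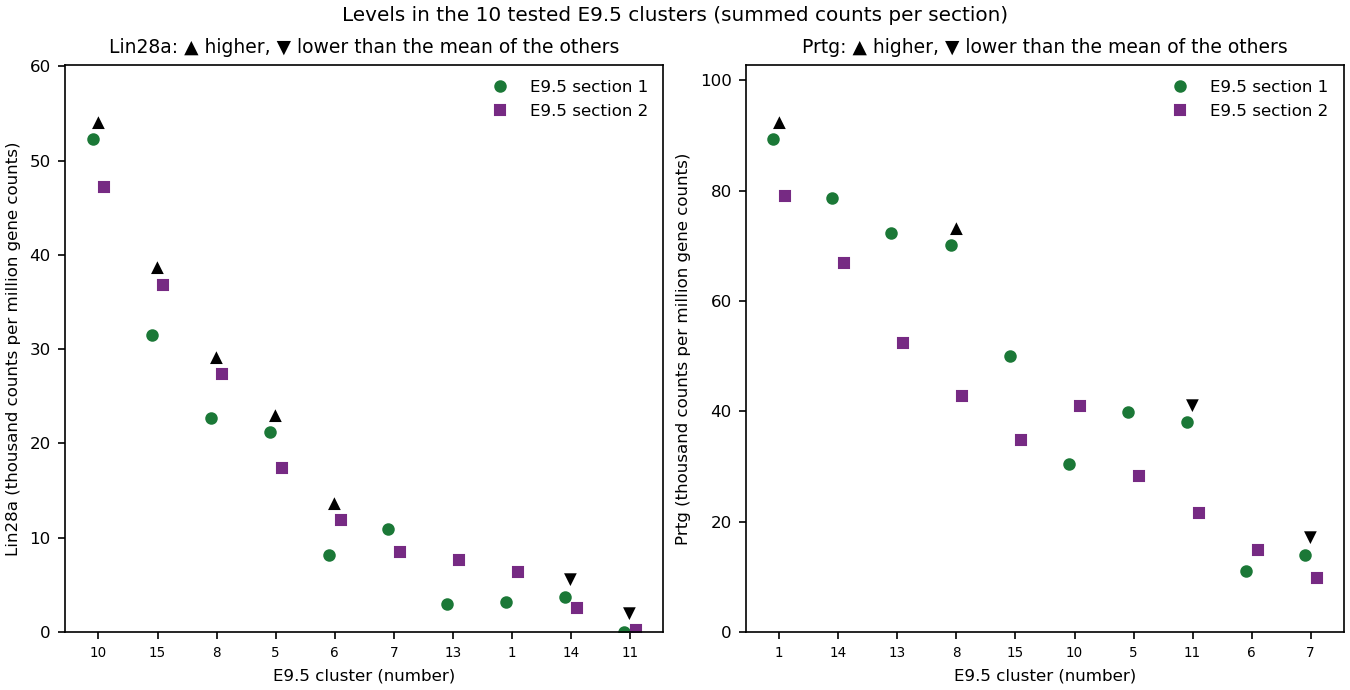
Levels of Lin28a (left) and Prtg (right) (CPM, axes divided by 1000) in the 10 tested E9.5 clusters, circles for section 1 and squares for section 2, ordered by the mean of both. Triangles mark clusters called higher or lower than the mean of the others. Lin28a runs from cluster 10 down to cluster 11, and Prtg from cluster 1 down to cluster 7.

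Each of these calls had the same direction in both sections taken alone, as differences of log2(CPM + 10) with no test, but several differed in size. Lin28a in cluster 14 differed from the mean of the others by -0.61 in section 1 alone and by -1.94 in section 2 alone. Lin28a in cluster 6 differed by 0.64 in section 1 alone and 0.51 in section 2 alone, and in cluster 5 by 2.17 and 1.14. Prtg in cluster 8 differed by 0.87 in section 1 alone and 0.42 in section 2 alone, and in cluster 11 by -0.11 and -0.67. Lin28a in cluster 10 differed by 3.62 in section 1 alone and 2.73 in section 2 alone.

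The order of the clusters differed between the genes, and neighbours in each order often overlapped in their section values. For Lin28a, clusters 15 and 8 did not overlap with cluster 10 or with each other, while clusters 7, 13 and 1 lay within 2936 to 10886 CPM. For Prtg, cluster 1 lay above every other cluster in both sections, and clusters 14, 13 and 8 overlapped between 42823 and 78596 CPM. Over the 10 clusters the Pearson correlation of the genes, on log2(CPM + 10) averaged over the sections, was -0.0061. The genes most like Lin28a were Col4a1 (0.980), Cnbp (0.979), Bax (0.977), Actg1 (0.973) and Cenpa (0.971). Since all clusters share 2 sections, and cluster 11 is low in many genes, Actg1 included, these values describe the clusters as they stand. Clusters 1, 13 and 14 were low in Actg1 as well, at 783 to 5040 CPM, with Gnas at 170 to 2153 CPM. In the other tested clusters apart from cluster 11, Actg1 was at 7776 CPM or more. Whether the correlations of Lin28a follow the low-Gnas areas was not tested. The genes most like Prtg were Ccnd1 (0.929), which encodes cyclin D1, Rrm2 (0.919), a subunit of ribonucleotide reductase, Arl4a (0.912), Spock2 (0.902) and Ctsw (0.853).

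Some clusters had fewer than 20 cells in section 1 and are described in section 2 without a test. The calls above cover 10 of 26 clusters and leave out large ones, such as clusters 2, 3 and 4 (667, 599 and 440 cells). Cluster 2, led by Foxd1 and Cxcl12, had Lin28a at 23402 CPM and Prtg at 25593 CPM. The heart muscle-like clusters 4, 9 and 22 had Lin28a at 13134, 20721 and 21877 CPM and Prtg at 13716, 10669 and 18437 CPM. Their name follows the marker rule. Cluster 4 was led by Acta2 and Pdlim3, but cluster 9 by Gata4 and Ackr3 and cluster 22 by Gata5 and Pcdh17. The name does not establish that clusters 9 and 22 are heart muscle. The endothelial-like cluster 18 was low in both genes, with Lin28a at 6585 CPM and Prtg at 6085 CPM. Cluster 17, led by Nkx2-3 and Foxf1 (a forkhead factor of the gut mesoderm), had Lin28a at 38762 CPM and Prtg at 19823 CPM. Cluster 3, led by Tcf15, had the reverse order, with Lin28a at 9644 CPM and Prtg at 45856 CPM. Cluster 12, with Stmn2 among its leading genes, had Lin28a at 22003 CPM and Prtg at 70205 CPM. In cluster 25, of 53 cells, no Lin28a was counted, for which a floor of 3 counts is 645 CPM, while Prtg was at 77006 CPM, and 88.7% of its cells lay in low-Gnas areas.

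Single cells with both genes were rare at E15.5 and common at E9.5. At E15.5, 425 of 195915 kept cells (0.217%) had a count of each. At E9.5 both had a count in 27.1% of kept cells of section 1 (24.1 to 30.3) and 54.9% of section 2 (53.7 to 56.1). To hold depth fixed, cells were thinned to 50 gene counts, which left out 59914 cells at E15.5, 336 of E9.5 section 1 and 1261 of E9.5 section 2. The shares with both genes were then 0.0478% at E15.5, 21.3% in E9.5 section 1 and 33.6% in E9.5 section 2. In section 2, Lin28a was seen in 48.1% of thinned cells with Prtg (46.4 to 49.7) and in 48.1% of those without Prtg (45.6 to 50.7). In section 1 the shares were 27.3% with Prtg (22.9 to 32.1) and 35.5% without Prtg (26.6 to 45.2), and the intervals overlapped. With all counts in use, section 2 had shares of 68.2% with Prtg and 33.1% without Prtg, so the gap there depended on depth. Outside the low-Gnas areas, the thinned shares of section 2 were 59.7% with Prtg (57.3 to 62.0) and 53.6% without Prtg (50.6 to 56.7), and these intervals did not overlap. In section 1 they were 49.4% with Prtg (41.8 to 57.1) and 42.4% without Prtg (31.7 to 53.5), with overlapping intervals and the opposite order to that over all areas. Cells of 1 section share their source, so no test was made.

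At E15.5 the question was which cells still held either gene above the blank codes. The section was clustered on the other 294 genes into 41 clusters. A gene was called above the blank codes in a cluster where the lower bound of its interval lay above the highest of the 19 codes there. With 1 section this is a description. By this rule Lin28a was above in 2 of 41 clusters and Prtg in 17, and these held 9.79% of Lin28a counts and 75.6% of Prtg counts. Over the other 294 genes and all clusters, 43.3% of values were above. As few clusters as for Lin28a, or fewer, were found for 44 of the 294 genes. The same number for Prtg was 146, and the median of the 294 genes was 18 clusters, so Prtg was near the middle of the panel. A blank code can itself stand out: Blank-11 lay above the other 18 codes in 16 clusters by the same rule, Blank-18 in 6, and Blank-6 reached 5472 CPM in cluster 26, against 709 CPM for the next code there.

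Lin28a was above the codes in clusters 19 and 25. Cluster 19, of 2147 cells, was led by Hand2 (a basic helix-loop-helix factor), Rgs4 and Ccnd1. It had 346 Lin28a counts or 901 CPM (interval 809 to 1001), against 193 counts or 503 CPM for its highest blank code and 118 CPM for the mean code. The counts were spread thinly, with 1 Lin28a count in 250 cells, 2 in 42 cells and at least 3 in 4 cells. The cluster was compact: 5 tiles of 200 by 200 µm held 50% of its cells. Prtg was also above the codes in these cells, at 755 CPM.

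Cluster 25, of 1346 cells, was led by Spint2, Mecom and Col18a1 and had 122 Lin28a counts or 519 CPM, against 87 counts for its highest blank code. This call rested on a few cells. In cluster 25, 10 cells had at least 3 Lin28a counts, with up to 14 in 1 cell. With 13 cells of 1 small group left out, described below, the cluster had 48 Lin28a counts, against 86 of its highest code, and was no longer above. Cluster 2, led by Car2 (548 counts, 527 CPM), and cluster 16, led by Fabp7 and Slc1a3 of neural progenitors (169 counts, 477.5 CPM), were above the mean code and below the highest.

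Prtg was highest in cluster 32, of 982 cells, led by Slco1c1 (a thyroid hormone transporter) and Car14. Its cells had a median of 23 gene counts. It had 127 Prtg counts or 3544 CPM (interval 2954 to 4216), against 586 CPM for the highest code. Cluster 20, of 2009 cells, with Wnt4 and Foxd1 among its leading genes, had 851 counts or 2481 CPM (2317 to 2653), against 446 CPM for its highest code, and 28.8% of its cells had a count. The mesenchyme-like cluster 9, led by Prrx1 and Prrx2, had 1389 counts or 1452 CPM, against 516.5 CPM. Further clusters above the codes were the mural-like cluster 11 at 979.7 CPM, cluster 7 led by Cytl1 at 873 CPM and the macrophage-like cluster 18 at 721 CPM. The endothelial-like cluster 5 at 685 CPM and the neuron-like cluster 3 at 576 CPM were also above. The other neuron-like cluster, cluster 6, was not, at 499 CPM against 530 CPM for its highest code. Cluster 21, led by Cldn5 and Slco1c1 with Kdr among its leading genes, was not called either. It had 594 CPM with a lower bound of 504 CPM, against 509 CPM for its highest code. Cluster 11 was led by Myh11, Gata5, Foxf1 and Acta2, with Foxf1 a factor of the gut mesoderm. Its name follows the marker rule and does not place these cells in vessel walls. The lowest levels were in cluster 2, where Prtg had 216 CPM, against 208 CPM for its mean blank code. Even the highest of these values lay below the lowest Prtg level of a tested E9.5 cluster in either section, which was 9793 CPM.

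**Figure D3:**
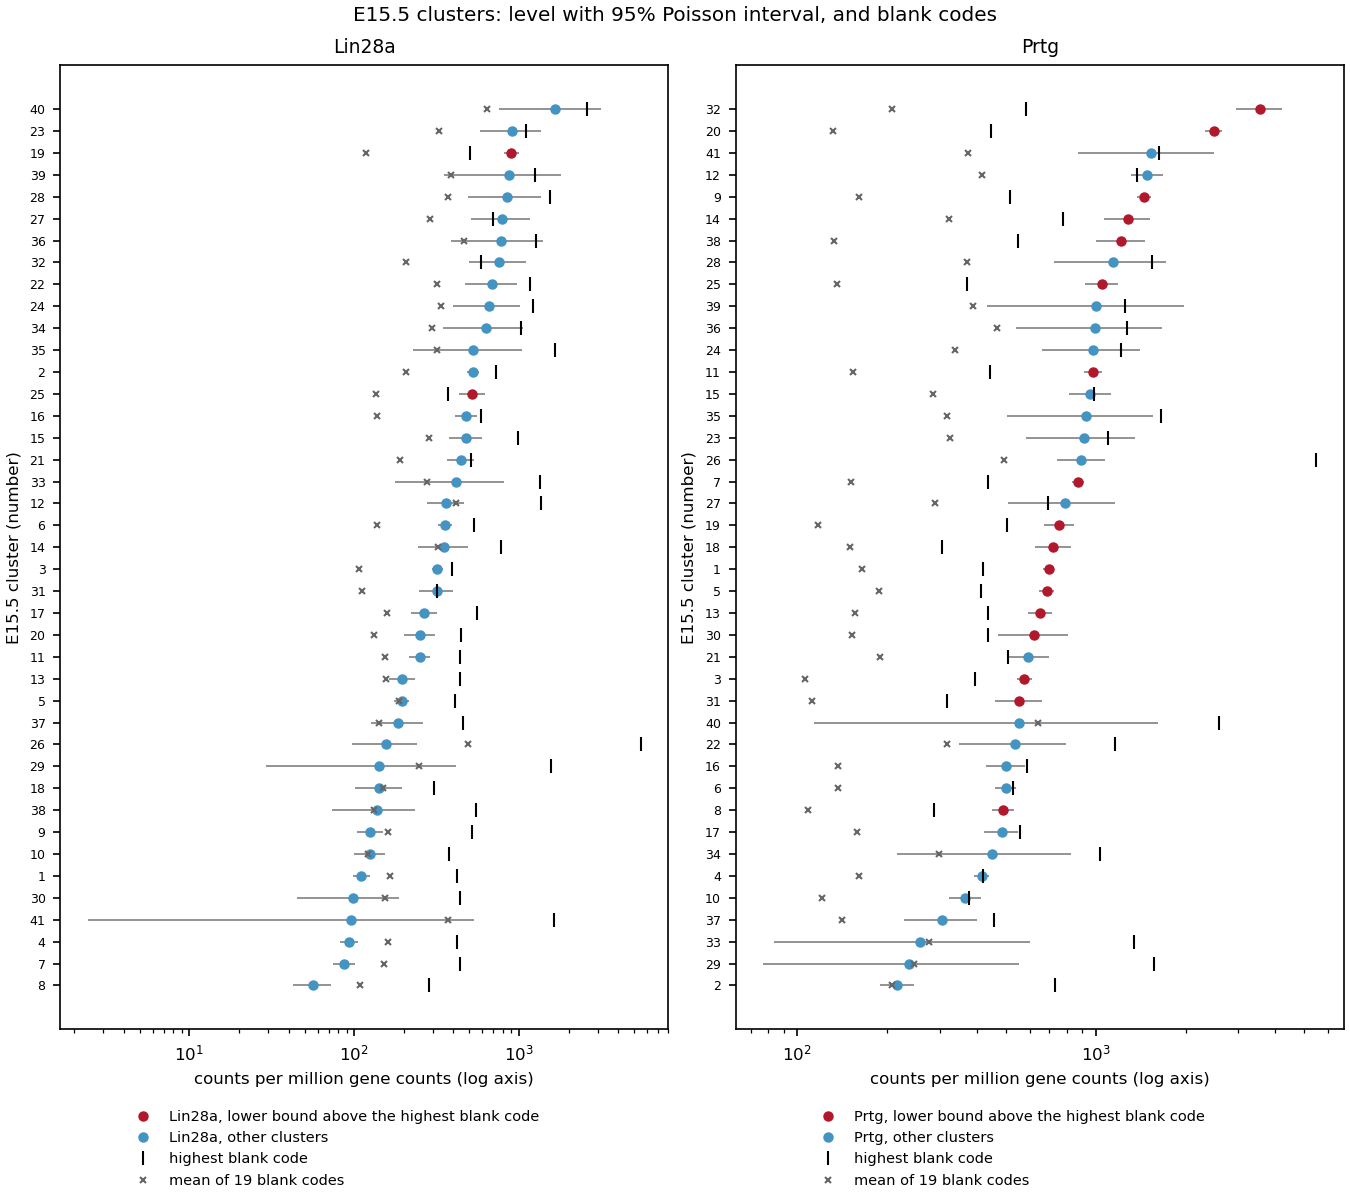
Levels of Lin28a (left) and Prtg (right) in the 41 clusters of the E15.5 section, in CPM on a log axis, with 95% Poisson intervals; bars mark the highest blank code and crosses the mean of 19 blank codes in the same cluster. Lin28a is above the highest code in 2 clusters and Prtg in 17 (red points).

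In space, Prtg at E15.5 was above the codes in part of the section. The section was cut into 862 square tiles of 200 µm with at least 1000 gene counts each, and the same rule was applied. Prtg was above the codes in 168 tiles (19.5%) and Lin28a in 16 (1.86%). No such share over the other 294 genes is given, so these counts cannot be set against the panel. Among the blank codes, set against the other 18, Blank-11 was above in 111 tiles (12.9%), Blank-18 in 23, Blank-6 in 17, and the other 16 codes in at most 2 each. A count of tiles as low as that of Lin28a was therefore also reached by single blank codes.

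The largest set of adjoining tiles above the codes for Prtg had 72 tiles, between x 600 and 4600 and y 4200 and 7400 µm, and held 24.1% of its counts at 1013 CPM. Clusters 9 and 7 gave 23.7% and 21.8% of those counts. For Lin28a the largest such set had 3 tiles, with 92.2% of its counts in cluster 19, and for Blank-11 it had 24 tiles.

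The single highest tile for Prtg, at 5033 CPM, lay apart from that set in the upper part of the section, and the 4 next highest, at 3554 to 3728 CPM, lay within its limits. A block around the highest tile was described further. Its limits, x from 3400 to 4800 and y from 600 to 1400 µm, were drawn after the Prtg map was seen, so the levels describe it and test nothing. Prtg was at 1950 CPM within the block (2075 counts in 6605 cells, interval 1867 to 2036), against 623 CPM in the rest of the section. The highest blank code was at 442 CPM within the block and 449.5 CPM in the rest. Lin28a was at 316 CPM within the block, against 220.3 CPM in the rest, but the 13 cells described below lie inside it, and without them the block had 216 CPM (interval 189 to 246). Cluster 20 lay mostly there, with 1575 cells and Prtg at 2720 CPM within the block. Cells of other clusters were also higher inside: cluster 1 (led by Dcn and Dkk2) had Prtg at 1827 CPM within the block, against 529.5 CPM in the rest. The mural-like cluster 11 (led by Myh11, Gata5 and Foxf1) had 2023 CPM within the block, against 780.5 CPM in the rest. The endothelial-like cluster 5 had 1385 CPM within the block, against 644.5 CPM in the rest.

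**Figure D4:**
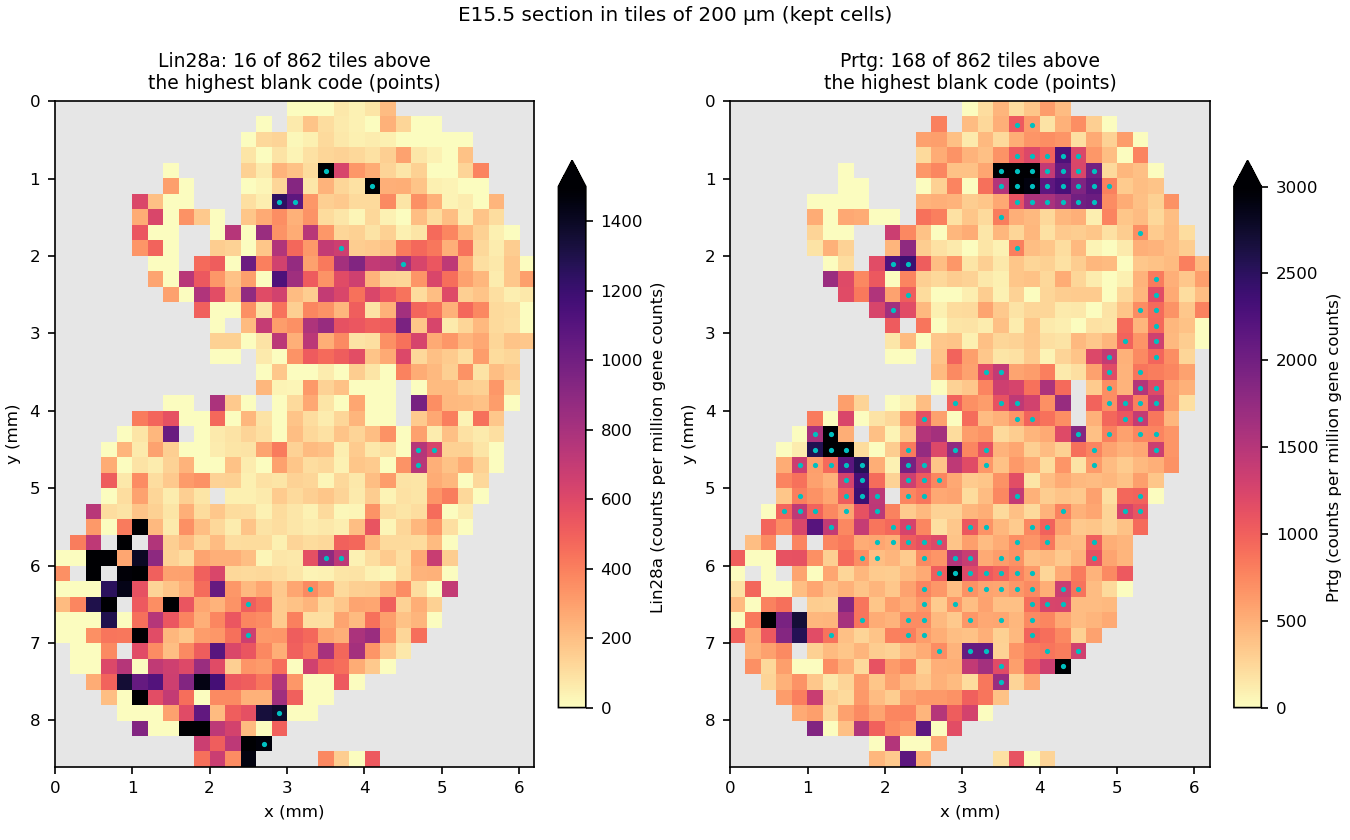
The E15.5 section in 862 tiles of 200 µm (x and y in mm), coloured by the level of Lin28a (left) and Prtg (right) in CPM; points mark tiles above the highest blank code. Prtg is above in 168 tiles, with a block at x 3.4 to 4.8 and y 0.6 to 1.4 mm, and Lin28a in 16 tiles.

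Lin28a had 1 small group of cells with several counts each. At E15.5, 17 kept cells had at least 4 Lin28a counts, a limit set after the values were seen, and 13 of them formed 1 group of 110 by 73.1 µm when cells up to 50 µm apart were linked. The remaining 4 cells lay apart from it and from each other, all in cluster 2, with 4, 4, 5 and 5 counts. The 13 cells had 4 to 14 Lin28a counts, with a median of 9, and 107 in all, or 35209 CPM. The 30 other kept cells within the same limits had 0 to 3 Lin28a counts, 10 in all. The highest blank code summed over the 13 cells was 3 counts. The tile that held the group was the highest of the section for Lin28a, at 5058 CPM.

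The 13 cells did not form 1 cluster: 8 were in cluster 25 and 1 each was in clusters 9, 10, 11, 15 and 20. They also held Prtg, with 15 counts in 9 cells or 4936 CPM, against 2152 CPM in the 30 other cells and 689.5 CPM in all kept cells. The genes named next were chosen after their values were seen. Pecam1, an adhesion protein of endothelium, had 54 counts in 11 of the 13 cells, 17769 CPM, against 3587 CPM in the 30 other cells. Dut, which keeps uracil out of DNA, was at 17111 CPM, against 3229 CPM in the 30 other cells. Gata4, a factor of heart, gut and gonad, was at 9543 CPM in the 13 cells, against 18834 CPM in the 30 other cells and 633.5 CPM in all kept cells. Wnt4 was at 9543 CPM in the 13 cells, against 10045 CPM in the 30 others. The proliferation gene Top2a was at 41461 CPM, against 15067 CPM in the 30 others. These cells were chosen for Lin28a, so their Lin28a level is a description of that choice.

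The group has no cell type here, since 0 of the 7 germ cell markers listed for it are in the panel. A blank code also reached such counts: Blank-6 had at least 4 counts in 53 cells, of which 12 formed 1 group under the same link distance, while 15 of the other codes had no such cell. The counts of Prtg per cell were lower, with at least 4 in 74 cells and at most 7.

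**Figure D5:**
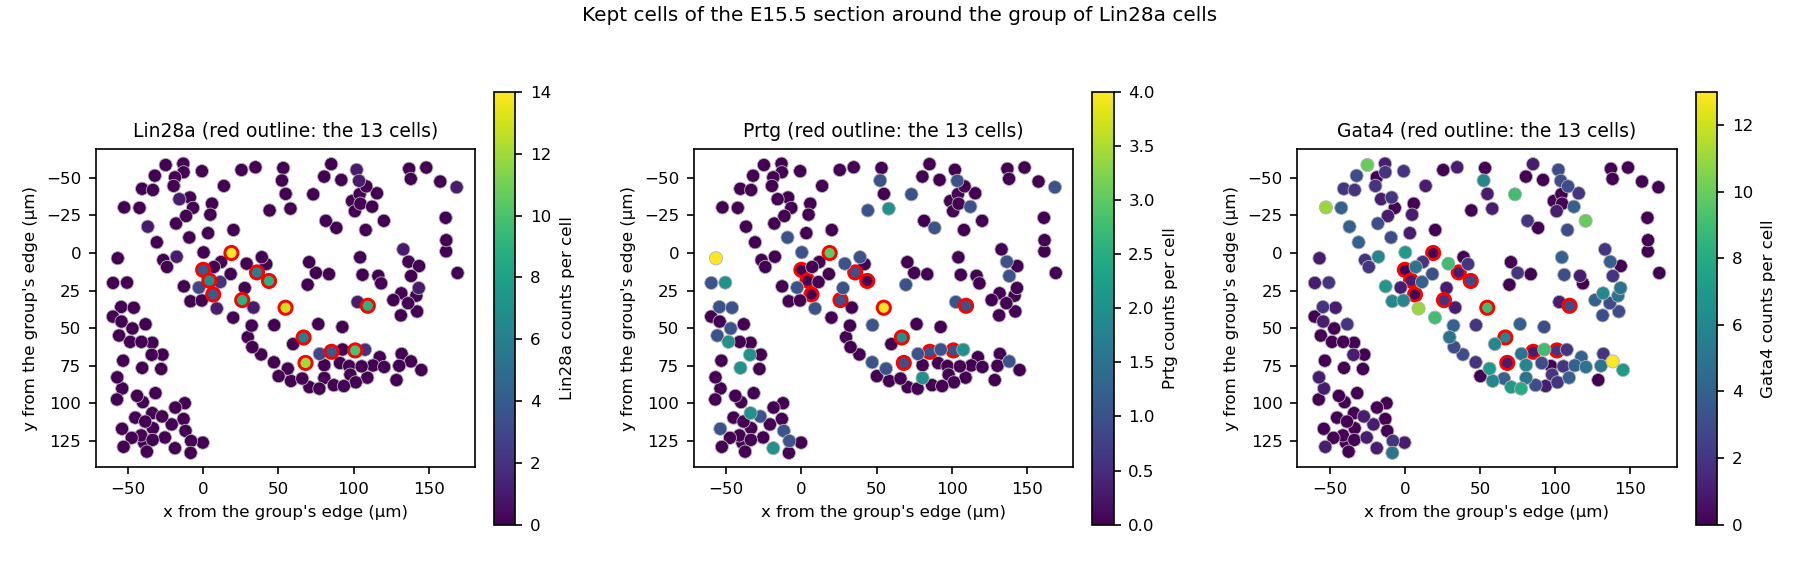
Kept cells around the group of Lin28a cells in the E15.5 section (x and y in µm from the group's edge, each point 1 cell), coloured by counts per cell of Lin28a (left), Prtg (middle) and Gata4 (right). The 13 outlined cells have 4 to 14 Lin28a counts, and Gata4 is present in cells around them.

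Few other genes of the pathways were in the panel. Lin28a and Prtg were chosen for their difference between stages, so a smaller change in other genes follows from that choice. The pathway genes were tested between the stages with edgeR (adjusted over all 296 genes). This set 1 section against 2, so p-values measure the spread of the E9.5 sections. Over all genes, 9.46% were higher and 5.41% lower at E15.5. Of the 4 genes listed for Lin28 and let-7, Aurka (a mitotic kinase) fell at E15.5 and the other 3 did not pass the test. Aurka was at 3801 CPM at E15.5, against 15094 and 17473 CPM in E9.5 sections 1 and 2, a log2 difference of -2.09 ± 0.65 (SE, edgeR, adjusted p = 0.0264). Ccnd1 was at 4743 CPM at E15.5, against 15910 and 10877 CPM at E9.5 (-1.48, edgeR, adjusted p = 0.111). Rrm2 was at 1044 CPM at E15.5, against 4885 and 3282 CPM at E9.5 (-1.95, edgeR, adjusted p = 0.130). The non-coding RNA H19 was at 140485 CPM at E15.5, against 99108 and 43359 CPM at E9.5 (1.00, edgeR, adjusted p = 0.182).

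The only DCC and netrin gene in the panel was Unc5b, a netrin receptor, at 996 CPM at E15.5, against 1750 and 6421 CPM at E9.5 (-2.04, edgeR, adjusted p = 0.110). Of 5 genes listed for the early embryo, 2 fell: Car14 (-4.03 ± 1.1 SE, edgeR, adjusted p = 0.00754) and Etv2, a factor of early blood and endothelium (-2.66 ± 0.91 SE, edgeR, adjusted p = 0.0322). Of 13 proliferation genes 2 fell, Aurka and Pimreg (-2.84 ± 0.90 SE, edgeR, adjusted p = 0.0264), and none rose. The median log2 difference was -1.71 over the Lin28 and let-7 list, -2.52 over the early embryo list and -1.57 over the proliferation list, against -0.15 over all genes. The lists were chosen with earlier results of these data known, so these medians are a description and no support for a shift. Car14, on the early embryo list, ranked 3 of 296 genes by its fall. Aurka and Rrm2 each count in 2 of the lists. The median over all genes shifted by 0.27 (log2) under upper-quartile factors, and Aurka, Etv2 and Pimreg were then no longer called (edgeR, adjusted p = 0.189, 0.269 and 0.0561). Without the low-Gnas areas of the E9.5 sections they were not called either (edgeR, adjusted p = 0.0802, 0.0504 and 0.0504). DESeq2 called 14 of the 21 different listed genes lower, with 46 of all 296 genes lower in the same fit, where edgeR called 4 of the 21.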

How the data were processed

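Per the labels, Vizgen's MERSCOPE did the hybridisation, imaging, segmentation and decoding, with a panel of 300 genes of which 296 were barcoded. The counts, as deposited by the authors, are raw and per segmented cell, for 296 genes and 19 blank codes. Per the file headers, each cell also has a centre, an imaging field and a volume, a size signal that the authors deposited as the platform made it, with no unit. Positions were read as micrometres. How cells were outlined and codes were called is not given in the sources used. Lin28a, Prtg and the gene lists were chosen with earlier results of these data known.

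Cells with at least 10 gene counts were kept. Counts without Lin28a and Prtg were scaled by depth, log-transformed, reduced to 30 principal components and clustered (15 neighbours, Leiden resolution 1, leidenalg 0.10.2); the E9.5 sections were clustered together. A cluster was named only where at least 3 markers were at least 2-fold higher and 2 of them were in its top 10 genes, a rule written with these data known. Levels are CPM, with blank codes left out of totals. edgeR 4.0.16 (TMM, genes summing to at least 30) tested summed counts per cluster and section, and summed counts per section for stage; DESeq2 1.42.0 was an alternative. Both steps were tested on simulated data. Genes were named by rule: the 2 members, 5 most alike per member, cluster leaders and list genes; the genes of the 13-cell group were chosen after their values were seen. The low-Gnas limit, thinning depth, tile size, block and 13-cell group were set after seeing the data. No doublet caller was run, since segmentation sets what a cell is.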

Additional observations from a re-analysis of the deposited data

How the results depend on the processing

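No paired analysis was possible between stages because the E15.5 and E9.5 sections came from different embryos. The E9.5 cluster test had the section as a block throughout. Lin28a was higher in 5 and lower in 2 clusters, and Prtg higher in 2 and lower in 2. Without the low-Gnas areas, with 6 clusters left, Lin28a was higher in 1 and lower in 2, and Prtg higher in 2 and lower in 1. For the alternative E9.5 cluster fits the share of all genes called is not given, so their counts cannot be set against the panel. With a marker gate in place of clusters (5 classes, 1 of them cells with no class), Lin28a was higher in 1 (neural tube, 1.39, edgeR, adjusted p = 0.00304) and lower in 1 (macrophage). Prtg was called in 0 either way (edgeR, with 0 higher and 1 lower at an unadjusted p below 0.05). DESeq2 was not run on the gate. The macrophage class does not establish macrophages: its marker C1qa was 18.1-fold higher in cluster 11, which was low in many genes. Without cluster 11, a choice made after seeing the data, Lin28a was higher in 3 and lower in 3. DESeq2 gave 4 lower clusters for Lin28a and 1 for Prtg. Subtracting the mean blank code and a Leiden resolution of 2 each left Lin28a lower in 1. With the subtraction, edgeR's fit of cluster 14 had no usable error. At a resolution of 2 the same held for that setting's clusters 1, 11 and 29 (SE 252, 986 and 18), of which 29 was matched to cluster 14. At 20 gene counts per cell Prtg was higher in 1 and lower in 0 (edgeR; 1 lower at an unadjusted p below 0.05); without a gene filter and at a resolution of 0.5 it was lower in 1. The cause was not tested except where fewer clusters or cells were left. At E15.5, against the mean blank code, Lin28a was above in 21 and Prtg in 36 of 41 clusters; by tiles it was 16 and 168 of 862. Without the 13-cell group, also added later, Lin28a was above in 1. Levels per cell volume leave the ratio to the blank codes as it is. The log2 level of E15.5 over the E9.5 mean was -7.76 for Lin28a with blanks subtracted, against -6.04 to -5.99 under the filters on cells, and -5.81 for Prtg (-5.32 without the low-Gnas areas). Leaving out 1 E9.5 section gave -6.40 to -5.61 for Lin28a and -6.13 to -5.50 for Prtg. Of the listed pathway genes, 4 of 21 fell (5.41% of all genes lower), against 14 with DESeq2 (46 of 296 genes lower), 1 without the low-Gnas areas (2.36% lower) and 1 with upper-quartile factors (1.69% lower). Of 266 further values of single genes and clusters, none changed direction where called, 25 lost and 15 gained a call. The blank codes limit Lin28a at E15.5, where 3 of them exceed its level, and 2 embryos at E9.5 and 1 at E15.5 limit every stage comparison.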
